A study of Mus musculus with 12 samples.

Results

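Genes of the epithelial junctions were examined in mouse embryonic stem (mES) cells that lost BRG1 in graded steps. The 9 genes were chosen by symbol from the 24421 genes of the count table, as the tight and adherens junction genes around Ildr1. They are Ildr1, Marveld2, Ocln, Cldn4, Cldn6, Cldn7, Tjp1, Cdh1 and Epcam. Ildr1 was known beforehand to be among the largest falls over the dose series. It thus owes its place to these measurements, and its values are given as a description without a test. The other 8 were chosen for their function, though with earlier results of these data known. All 9 were in the table, and 8 passed the filter on low values, which asked for a mean of at least 1 RPKM (read pairs divided by exon length in kb and by library size) over all libraries. Marveld2, with a mean of 0.633 RPKM, did not.

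Tight junctions seal the space between epithelial cells. Claudins form their strands, occludin runs within them, and the tight junction protein encoded by Tjp1 ties the strands to actin. Where the corners of several cells meet, the angulin family, of which Ildr1 is a member, recruits tricellulin, the product of Marveld2. Below them, adherens junctions are built on E-cadherin (Cdh1), which also holds mES cells together in compact colonies, and Epcam encodes an adhesion molecule of epithelia and of pluripotent cells that binds claudins.

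All libraries came from B6 mES cells grown in 2i+LIF (inhibitors of MEK and GSK3 with leukaemia inhibitory factor), with a dTag knock-in at Brg1 in every group, the controls included. The tag lets the small molecule dTAG13 direct BRG1, the ATPase of the mSWI/SNF chromatin remodelling complexes encoded by Smarca4, to degradation. Controls (0 nM) received no dTAG13, with the study describing them as given its solvent DMSO and the labels naming no treatment, while the others spent 24 h in medium that held dTAG13 at 0.3, 1, 3, 10 or 100 nM, and 2 libraries of total RNA were sequenced for each of the 6 conditions, from what the study calls independent experiments. The line was raised from single-cell colonies, so differences between clones were not sampled.

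Library totals ran from 4663484 to 6375582 read pairs, and Rn45s took 10.5% to 19.4% of them. Smarca4 RNA ran from 63.2 to 71.0 RPKM, and both 100 nM libraries, at 71.0 and 70.9 RPKM, lay above all others. The labels number the 0, 1, 10 and 100 nM libraries as 1 set and the 0.3 and 3 nM libraries as a second set. Comparisons of 0.3 or 3 nM with 0, 1, 10 or 100 nM thus cross the sets, and those within a set do not. Every step from one dose to the next crosses the sets, except that from 10 to 100 nM. All 6 markers of pluripotent cells stayed above 1 RPKM in every condition, with a summed level of 1200 to 1410 RPKM.

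Ildr1, on mm10 chromosome 16 from 36693978 to 36726804, was lower at every step of the series. It stood at 8.66 and 7.72 RPKM without dTAG13, 5.94 and 6.60 with 0.3 nM, 4.28 and 3.62 with 1 nM, 1.06 and 1.91 with 3 nM, 0.807 and 0.732 with 10 nM, and 0.488 and 0.481 with 100 nM. No condition overlapped with the next. The mean went from 8.19 ± 0.666 RPKM (SD, n = 2, as for all means below) to 48.3% of that level with 1 nM, 18.1% with 3 nM and 5.91% with 100 nM, or from 154 and 145 counts to 9 and 9. Its log2 fold changes against 0 nM were -0.38, -1.05, -2.43, -3.40 and -4.06 with rising dose (standard errors, SEs, 0.18, 0.19, 0.23, 0.25 and 0.27). In bulk RNA, fewer cells that express a gene and less RNA per cell cannot be told apart, here and in the results that follow. Gaps between conditions of 2 libraries are likewise a description throughout, and their share over all genes was not counted. At 0.3 against 0 nM, 6 of the 9 genes lay below and 1 above without overlap. Yet 0 of the 7 tested members other than Ildr1 passed the test described below at that dose.

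Cldn4, on chromosome 5 from 134945124 to 134946934, encodes a claudin that forms barrier strands in many epithelia. Its libraries held 25.1 and 22.4 RPKM without dTAG13, 20.5 and 19.2 with 0.3 nM, 15.4 and 16.3 with 1 nM, 11.7 and 13.1 with 3 nM, 7.50 and 9.65 with 10 nM, and 5.19 and 6.20 with 100 nM. As for Ildr1, every dose lay below the one before without overlap. The mean with 100 nM was 5.69 ± 0.716 RPKM against 23.8 ± 1.90 RPKM without dTAG13, so that 23.9% remained. The fall was 1.91-fold with 3 nM, 2.78-fold with 10 nM and 4.17-fold with 100 nM, with log2 fold changes of -0.93, -1.47 and -2.06 (SEs 0.13, 0.14 and 0.15). The adjusted p was 3.41e-05, 2.24e-08 and 8.46e-11 at these doses (quasi-likelihood test of edgeR, Benjamini-Hochberg adjusted across the 11378 genes that passed the filter, as throughout).

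Epcam, on chromosome 17 from 87635979 to 87651127, also fell, and most of its change came at the lowest and the highest doses. Its libraries held 28.9 and 28.2 RPKM without dTAG13, 24.2 and 21.6 with 0.3 nM, 19.4 and 18.7 with 1 nM, 17.5 and 19.5 with 3 nM, 18.7 and 15.5 with 10 nM, and 11.5 and 13.3 with 100 nM. The 3 nM libraries spanned those of 1 nM and overlapped those of 10 nM, while those of 0 nM lay above all treated libraries and those of 100 nM below all others. The mean went from 28.5 ± 0.481 to 12.4 ± 1.29 RPKM, and 66.6% of the starting level remained with 1 nM, 59.8% with 10 nM and 43.5% with 100 nM. The log2 fold change was -0.59 with 1 nM, -0.62 with 3 nM, -0.74 with 10 nM and -1.20 with 100 nM (SEs 0.11, 0.11, 0.11 and 0.12), with an adjusted p of 0.00338, 0.000574, 2.53e-05 and 1.78e-08 from the same test.

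The promoters of these 3 genes, all lower with rising dose, are shown because transcripts that move together can be read beside the sequence they start from. They are the RefSeq windows of GRCm38.p6 (the mm10 build) that run from 250 bases before to 50 bases after a start site, 5′ to 3′ on the gene's strand. Capitals mark matches on either strand to 5 motifs. The E-box searched was CAGGTG, to which the Snail and Zeb repressors are known to bind. For grainyhead factors, which switch on epithelial genes, the letters were AACCNGTT, and for the factors of the AP-1 family they were TGACTCA. The GC box was searched as GGGCGG, which is common near start sites, and the TATA box as TATAAA.
Ildr1, chr16:36693728-36694027, plus strand: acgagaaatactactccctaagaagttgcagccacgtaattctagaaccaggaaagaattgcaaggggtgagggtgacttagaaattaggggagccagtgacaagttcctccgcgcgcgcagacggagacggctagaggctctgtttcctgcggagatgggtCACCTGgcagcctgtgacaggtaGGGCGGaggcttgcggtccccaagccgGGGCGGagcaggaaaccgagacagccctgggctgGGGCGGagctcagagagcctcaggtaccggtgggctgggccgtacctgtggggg
Cldn4, chr5:134946885-134947184, minus strand: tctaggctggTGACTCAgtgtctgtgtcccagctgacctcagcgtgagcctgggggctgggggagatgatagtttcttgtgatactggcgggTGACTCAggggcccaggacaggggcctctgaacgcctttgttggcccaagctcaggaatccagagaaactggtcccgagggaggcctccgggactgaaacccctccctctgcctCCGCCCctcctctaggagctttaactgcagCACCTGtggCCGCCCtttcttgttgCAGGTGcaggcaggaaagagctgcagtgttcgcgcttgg
Epcam, chr17:87635729-87636028, plus strand: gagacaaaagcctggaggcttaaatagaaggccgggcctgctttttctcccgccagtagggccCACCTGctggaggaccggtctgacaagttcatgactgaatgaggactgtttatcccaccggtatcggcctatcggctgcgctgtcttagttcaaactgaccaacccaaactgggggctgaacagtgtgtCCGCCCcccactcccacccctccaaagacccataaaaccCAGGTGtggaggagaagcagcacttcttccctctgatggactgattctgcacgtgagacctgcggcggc

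Each of the 3 promoters held CAGGTG or its reverse complement, once in Ildr1 and at 2 places each in Cldn4 and Epcam. This E-box was found in 20.2% of all 32851 promoter windows of the same length. The GC box was in all 3 as well and in 35.7% of all windows. Cldn4 alone of the 3 held the AP-1 letters, at 2 places, against 5.2% of all windows, and no matches to the grainyhead letters (2.09% of windows) or to TATAAA (13.6%) were found in the 3. Among the 8 genes with an entry (all but Cdh1), which had 11 windows, E-box letters were in 7 and GC box letters in all 8. A gene was counted for a match in any of its windows, whereas the shares above are per window. Cldn7 had a window without a match to any motif. Ocln, which was not called lower, held both E-box and GC box letters. A match describes letters in this window and is no measure of binding.

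**Figure D1:**
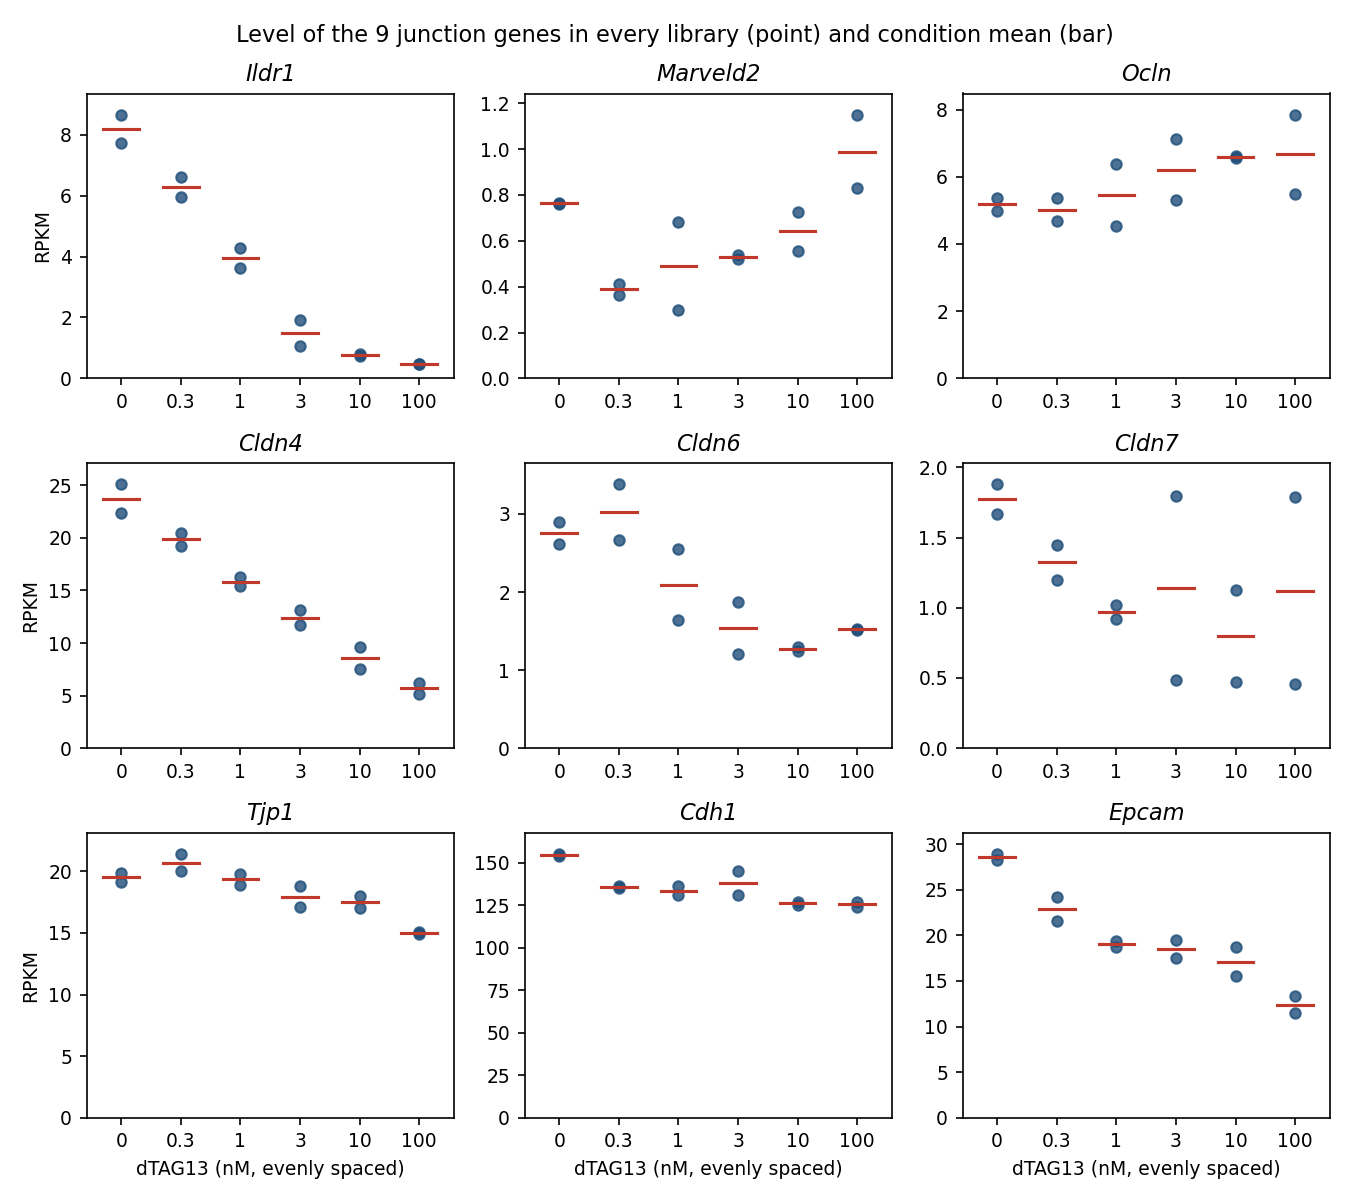
Level of each junction gene in RPKM (vertical axis, from 0, own scale for each gene) against the dTAG13 dose in nM (evenly spaced); points are libraries and red bars the means of 2. Ildr1 and Cldn4 descend at every dose, from 8.19 to 0.484 and from 23.8 to 5.69 RPKM, whereas Ocln ends above its starting level, at 6.68 against 5.18 RPKM.

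The core adherens junction gene changed little. Cdh1, on chromosome 8 from 106603368 to 106670246, was the most abundant of the 9 per kb, with 154 and 155 RPKM without dTAG13, 135 and 136 with 0.3 nM, 136 and 131 with 1 nM, 131 and 145 with 3 nM, 127 and 125 with 10 nM, and 124 and 127 with 100 nM. Every treated library lay below both 0 nM libraries, and 81.5% of the level remained with 100 nM. The log2 fold change there was -0.29 (SE 0.054, adjusted p = 0.000171), with a 95% interval of -0.41 to -0.18 that stops short of a 1.5-fold fall. At 10 nM it was -0.29 as well (adjusted p = 0.000301). Cdh1 therefore differed from 0 nM by more than the spread between replicates, but not by the fold required for a call.

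Tjp1, the cytoplasmic scaffold, on chromosome 7 from 65296165 to 65371244, passed the test for a fall with the highest dose only, and not the fold minimum. It stood at 19.9 and 19.1 RPKM without dTAG13, 18.9 and 19.8 with 1 nM, 17 and 18 with 10 nM, and 15.1 and 14.9 with 100 nM. Its log2 fold change was -0.01 with 1 nM, -0.15 with 10 nM (adjusted p = 0.167) and -0.38 with 100 nM (SE 0.074, adjusted p = 0.000444). The 95% interval with 100 nM, -0.53 to -0.22, again lies short of 1.5-fold, and 77.1% of the level remained.

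Ocln and Marveld2, which encode related proteins that span the membrane several times, are neighbours on chromosome 13, 43459 bases apart, and neither passed the test in any comparison. Ocln (100497367 to 100552498) had 4.98 and 5.38 RPKM without dTAG13, 6.55 and 6.61 with 10 nM, and 5.50 and 7.85 with 100 nM. Both upper doses lay above 0 nM without overlap, but the log2 fold change with 100 nM was 0.36 (SE 0.19, adjusted p = 0.173), with a 95% interval of -0.02 to 0.75. The lower end of that interval is close to 0, whereas the whole intervals of Cldn4 and Epcam lie below -0.95. Marveld2 (100595957 to 100616971), the tricellular partner of Ildr1, had 6 to 24 counts per library and 0.763 RPKM without dTAG13 against 0.991 RPKM with 100 nM. In a fit of all 23204 genes with a count, its log2 fold change with 100 nM was 0.38 (SE 0.42, adjusted p = 0.639) with an interval of -0.45 to 1.20, so neither a rise nor a fall was detectable at this depth. At 0.3 nM it was -0.96 (SE 0.51, adjusted p = 0.912).

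The remaining claudins were low. Cldn6, an early embryonic claudin on chromosome 17 from 23679365 to 23682446, had 2.61 and 2.90 RPKM without dTAG13, 3.38 and 2.67 with 0.3 nM, 2.55 and 1.64 with 1 nM, 1.20 and 1.87 with 3 nM, 1.30 and 1.25 with 10 nM, and 1.53 and 1.51 with 100 nM. All libraries from 1 nM up lay below both 0 nM libraries, yet with 9 to 29 counts per library the test was not passed: the log2 fold change was -1.10 with 10 nM (SE 0.40, adjusted p = 0.0548) and -0.85 with 100 nM (SE 0.38, adjusted p = 0.11). The adjusted p with 10 nM was 0.0257 with the likelihood ratio test and 0.0462 with normalization factors from all genes, and ran up to 0.211 over the alternatives. Cldn7, on chromosome 11 from 69964779 to 69967886, had 4 to 16 counts. Its libraries split within conditions, with 0.454 and 1.79 RPKM with 100 nM against 1.88 and 1.67 without dTAG13, and its log2 fold change of -0.65 had an interval of -1.80 to 0.50 (adjusted p = 0.446).

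**Figure D2:**
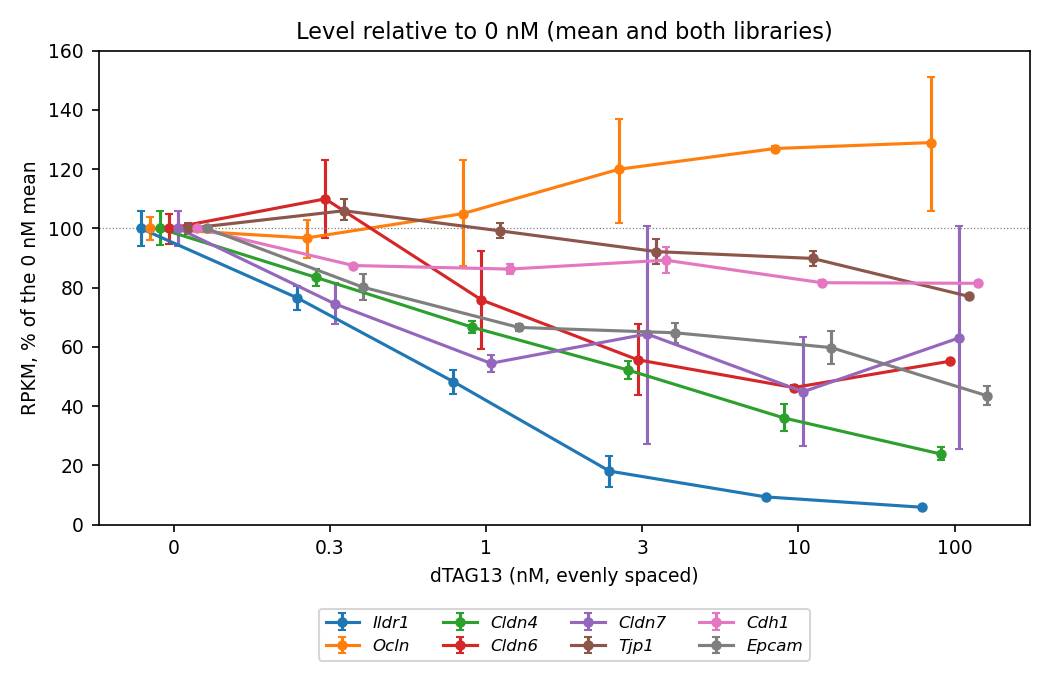
Mean level as a percentage of the 0 nM mean (vertical axis) against the dTAG13 dose in nM (evenly spaced), with bars spanning both libraries; Marveld2, under the filter, is left out. At 1 nM Ildr1 is at 48.3%, Cldn4 at 66.7%, Epcam at 66.6% and Cdh1 at 86.3%, and with 100 nM they are at 5.91%, 23.9%, 43.5% and 81.5%.

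Counted against 0 nM, with a call defined by an adjusted p below 0.05 together with a change of more than 1.5-fold, 2 of the 7 tested members other than Ildr1 were lower with 100 nM, where 6.83% of all tested genes were lower. The same 2, Cldn4 and Epcam, were lower with 10 nM (5.01% of all genes) and with 3 nM (2.47%). At 1 nM only Epcam was called, where 0.773% of all genes were lower. Cldn4 was next to it at that dose, with a log2 fold change of -0.58 (adjusted p = 0.0117) that fell just short of 1.5-fold while the -0.59 of Epcam was just beyond, so the 2 genes are not told apart by that call. The Epcam call with 1 nM was lost without 0 nM replicate 1 (-0.57) or 1 nM replicate 2 (-0.55, adjusted p = 0.0874), and its call with 3 nM without 3 nM replicate 1 (-0.54, short of 1.5-fold). At 0.3 nM, 0 of the 7 were called (0.0176% of all genes were lower), although 3 had an unadjusted p under 0.05 by the quasi-likelihood test, as had 862 of the 11378 tested genes, and the likelihood ratio test and DESeq2's Wald test also gave 0. These 5 comparisons share the 2 libraries of 0 nM. The median log2 fold change of the 7 was -0.19, -0.40, -0.62, -0.74 and -0.65 with rising dose, and that of all tested genes lay within 0.01 of 0.

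The doses between allow contrasts in which the levels of neither the 0 nM nor the 100 nM libraries enter, although those libraries share in the estimate of the spread. These doses are part of the series over which Ildr1 was chosen, so its values here are a description without a test. At 3 nM, Ildr1 was 4.14-fold lower than with 0.3 nM (log2 change -2.05, SE 0.24), and Cldn4 was 1.60-fold lower (-0.68, SE 0.14, adjusted p = 0.00338). At 10 nM, Ildr1 was 5.09-fold lower than with 1 nM (-2.35, SE 0.28), and Cldn4 was 1.85-fold lower (-0.89, SE 0.15, adjusted p = 0.000251). With each comparison fitted on its own 4 libraries, the adjusted p of Cldn4 was 0.00981 and 0.00477. Leaving aside Ildr1, chosen for its fall over the series, 1 of the 7 other tested members was called in each comparison, beside 1.26% of all tested genes lower at 3 against 0.3 nM and 1.72% at 10 against 1 nM. Without the first 0.3 nM library the Cldn4 value with 3 nM was -0.62 with an adjusted p of 0.0601.

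Epcam was not called in either step. Its log2 fold change was -0.30 at 3 against 0.3 nM (95% interval -0.54 to -0.06, adjusted p = 0.138) and -0.16 at 10 against 1 nM (-0.40 to 0.09, adjusted p = 0.537). The values of Cdh1 were 0.03 and -0.08, and those of Tjp1 -0.20 and -0.14. Whether Epcam differs from Cldn4 or Ildr1 in these steps was not tested, and at 3 against 0.3 nM its interval overlaps that of Cldn4, -0.96 to -0.39.

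**Figure D3:**
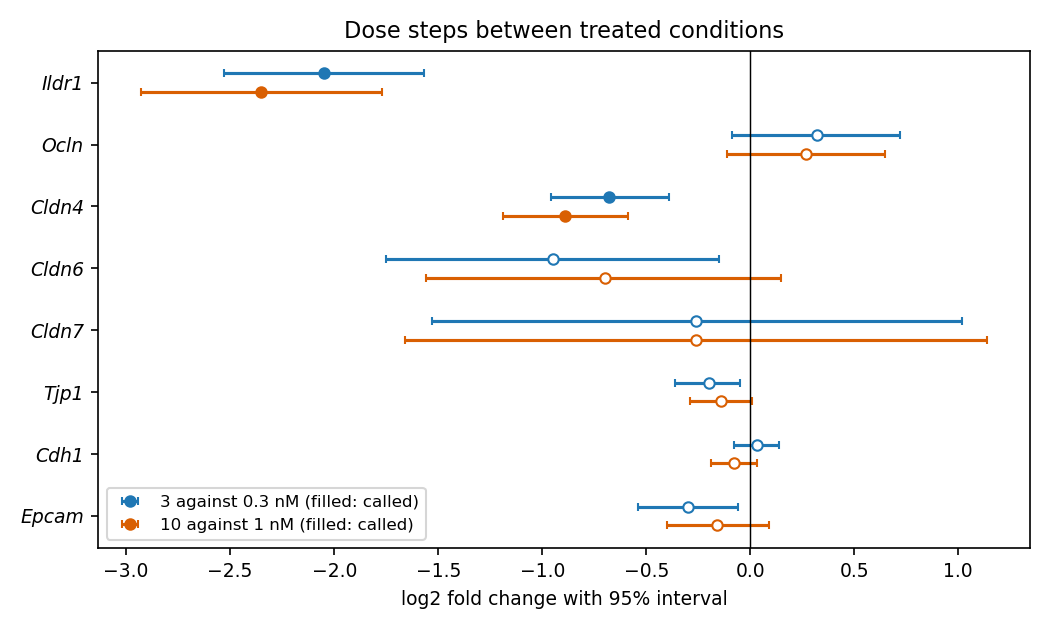
Log2 fold change (horizontal axis) of 8 junction genes at 3 against 0.3 nM (blue) and 10 against 1 nM (orange), with 95% intervals. For genes other than Ildr1, filled points passed the adjusted p and the fold minimum. Ildr1 lies at -2.05 and -2.35 and Cldn4 at -0.68 and -0.89, and the other 6 genes have open points. The points of Ildr1 are filled as well, but it was chosen for its fall over the series. Their fill is therefore not to be read as a test.

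The order of the genes by level per kb changed with these falls. At 0 nM it ran Cdh1 (154 RPKM), Epcam (28.5), Cldn4 (23.8), Tjp1 (19.5), Ildr1 (8.19), Ocln (5.18), Cldn6 (2.76), Cldn7 (1.78) and Marveld2 (0.763), and no neighbours overlapped. At 100 nM Cdh1 (126 RPKM) was followed by Tjp1 (15), Epcam (12.4), Ocln (6.68), Cldn4 (5.69), Cldn6 (1.52), Cldn7 (1.12), Marveld2 (0.991) and Ildr1 (0.484). There the libraries of Ocln and Cldn4 overlapped, as did those of Cldn7 with each of Cldn6, Marveld2 and Ildr1. Ildr1 thus moved from the fifth place to the last.

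By likeness of pattern, measured as Pearson's r of log2(RPKM + 0.1) with Ildr1 over the 12 libraries, which share their doses, Cldn4 stood at r = 0.964 and rank 75 of 11377 genes. Epcam had r = 0.901 (rank 385), Tjp1 0.879 (507), Cldn6 0.874 (532), Cdh1 0.768 (1140), Cldn7 0.409 (3222) and Ocln -0.601 (9509). Among the 5 genes most like Ildr1 were Sh3bp1 (0.992), Kit, the receptor of stem cell factor (0.989), Rcn1 (0.986) and Nqo1, a quinone reductase (0.986). These 4 fell less far, to 28.4%, 28%, 32.8% and 19.1% of their 0 nM level with 100 nM.

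Beyond the 9 genes, 109 others of the junctions and of their transcriptional control were listed in 9 groups, of which 108 were in the table and 62 passed the filter. At 100 against 0 nM, 12 of the 62 were lower and 5 higher, where 6.83% of all tested genes were lower and 4.36% higher, and 45 were not called. The median log2 fold change of the 62 was -0.20 and 40 were negative. The lists were drawn up with earlier results of these data known.

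Other tight junction genes moved both ways. Of 20 claudins in the table, 18 were under the filter, Cldn12 was at 0.12 (adjusted p = 0.565), and Cldn3 was lower (14 and 17 counts without dTAG13, 6 and 5 with 100 nM; log2 fold change -1.50, SE 0.53, adjusted p = 0.0427). Cldn3 is also the neighbour of Cldn4, 39280 bases away, and its adjusted p was over 0.05 with DESeq2 (0.182) and without any 1 of the 4 libraries (0.0903, 0.174, 0.12 and 0.184). Of the other angulins, Lsr had a log2 fold change of -0.56 (adjusted p = 0.0105, short of 1.5-fold), going from 9.50 to 6.47 RPKM. Ildr2 rose from 2 and 4 counts to 20 and 13, at under 1 RPKM (2.39, SE 0.66, adjusted p = 0.00425 in the fit of all genes with a count). Of the 3 angulins, Lsr was the most abundant both without dTAG13 and with 100 nM.

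Cgnl1, which encodes paracingulin, a linker of junctions to the cytoskeleton, rose from 1.49 and 1.43 RPKM without dTAG13 to 2.17 and 1.86 with 1 nM, 2.95 and 2.53 with 3 nM, 5.25 and 4.03 with 10 nM, and 6.58 and 7.11 with 100 nM. Both 1 nM libraries lay above those without dTAG13, although the test was first passed with 3 nM (0.46, adjusted p = 0.234 with 1 nM, and 0.90, adjusted p = 0.00129 with 3 nM). The log2 fold change was 2.23 with 100 nM (SE 0.15, adjusted p = 3.13e-11), 0.91 at 3 against 0.3 nM (adjusted p = 0.00237) and 1.20 at 10 against 1 nM (adjusted p = 6.94e-06). Its paralogue Cgn, for cingulin, stood at 3.93 and 3.66 RPKM (-0.10, adjusted p = 0.684). Esam, an immunoglobulin-like adhesion molecule, rose from 0.857 to 3.09 RPKM (1.84, adjusted p = 0.00141), and the scaffold Magi1 fell from 6.94 to 3.91 RPKM (-0.83, adjusted p = 1.3e-06). Under the filter, Inadl, a polarity scaffold also known as Patj, rose (0.94, adjusted p = 0.000934).

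In the adherens junction, the largest fall was that of Jup, which encodes plakoglobin, a relative of beta-catenin shared with desmosomes. Jup held 31.2 and 33.7 RPKM without dTAG13, 31.3 and 30.9 with 1 nM, 23.5 and 23.7 with 3 nM, 20.1 and 19.4 with 10 nM, and 12.8 and 11.8 with 100 nM. It was at -0.06 with 1 nM (adjusted p = 0.794) and passed the test at each dose above, with 3 nM short of 1.5-fold (-0.46, adjusted p = 0.000125) and with 10 and 100 nM beyond it (log2 fold change with 100 nM -1.40, SE 0.077, adjusted p = 3.75e-13; at 10 against 1 nM -0.65, adjusted p = 1.39e-06). Ctnnb1, for beta-catenin itself, went from 126 to 109 RPKM (-0.20, adjusted p = 0.0102). Pvr (-0.85, adjusted p = 6.43e-05) and Pvrl3 (-0.62, adjusted p = 0.0093), of the nectin family, were also lower, though Pvrl3 was at -0.50 (adjusted p = 0.122) without 0 nM replicate 2 and at -0.52 (adjusted p = 0.113) without 100 nM replicate 1.

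Cdh3, for P-cadherin, lies 46457 bases from Cdh1 and rose. Its libraries held 5.04 and 5.46 RPKM without dTAG13, 4.39 and 4.28 with 0.3 nM, 5.71 and 5.13 with 1 nM, 8.04 and 8.72 with 3 nM, 10.2 and 11.3 with 10 nM, and 14.6 and 13.2 with 100 nM. The log2 fold change was 1.40 with 100 nM (SE 0.12, adjusted p = 1.08e-09), 0.95 at 3 against 0.3 nM (adjusted p = 4.75e-05) and 0.99 at 10 against 1 nM (adjusted p = 4.57e-06). Cgnl1 and Cdh3 were the 2 list genes called higher in each of these dose steps, where 0.738% and 0.817% of all tested genes were higher. At 100 nM Cdh1 RNA was still the more abundant per kb, at 126 against 13.9 RPKM. Apart from Cdh3 and Cldn3, the nearest genes within 50 kb of a member, members aside, lay between -0.35 for Ybx2 beside Cldn7 and 0.55 for Tango6 beside Cdh1. Tango6 passed the test (adjusted p = 0.000132) but not the fold minimum.

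**Figure D4:**
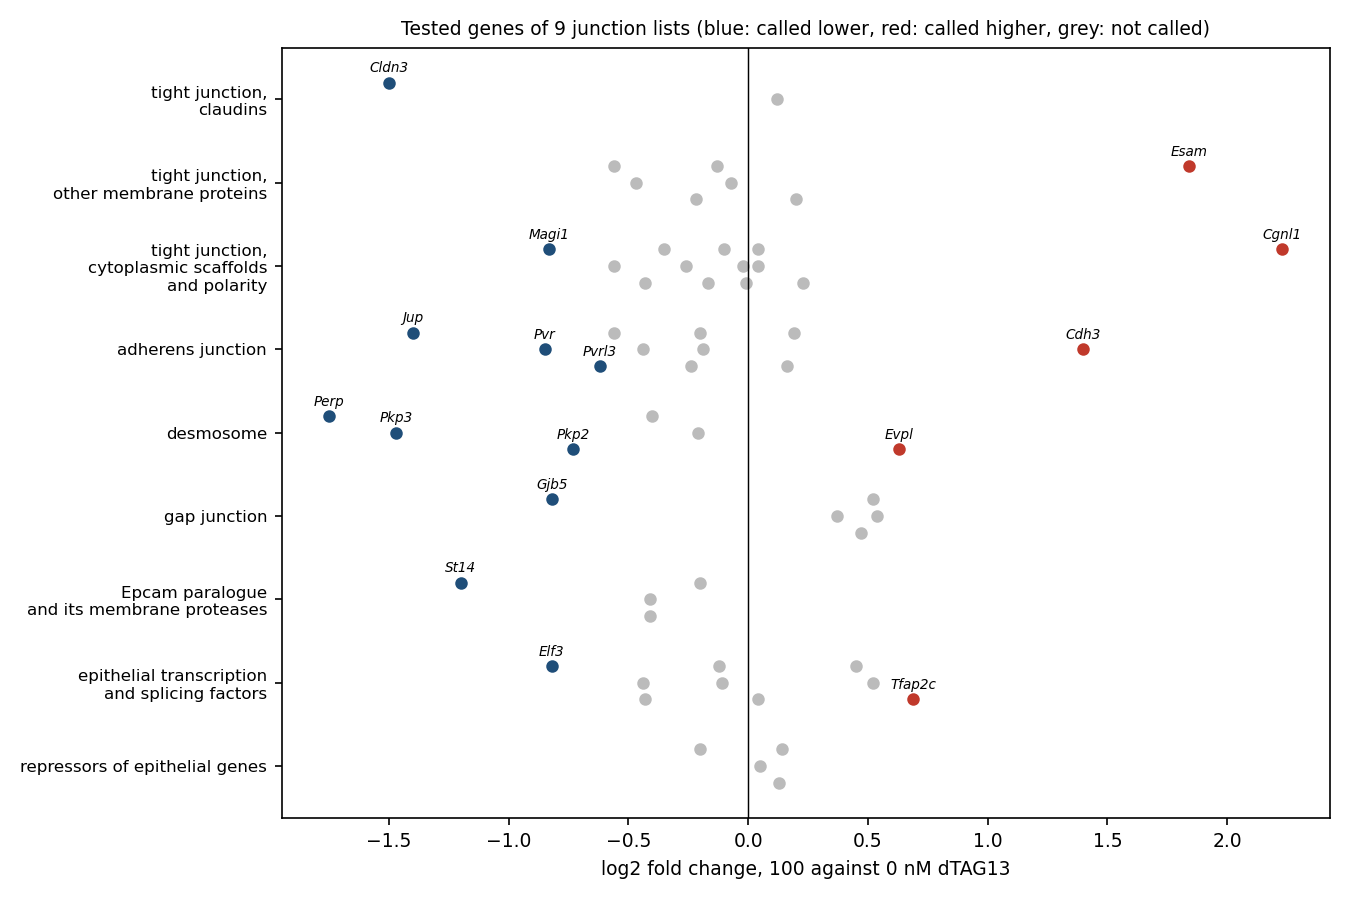
Log2 fold change at 100 against 0 nM (horizontal axis) of 61 of the 62 tested genes of 9 junction lists (rows); blue genes were called lower, red higher and grey not called. Perp at -1.75 and Cgnl1 at 2.23 are the ends of the range.

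Desmosomes link cells to their intermediate filaments. Of 6 tested genes of this list, 3 were lower and 1 higher with 100 nM. Of all tested genes, 6.83% were lower and 4.36% higher. Perp, a desmosomal membrane protein and p53 target, fell from 6.66 and 8.18 RPKM to 2.69 and 1.71 with 100 nM (-1.75, SE 0.27, adjusted p = 1.95e-05), and the plakophilins Pkp2 (-0.73, adjusted p = 0.0026) and Pkp3 (-1.47, adjusted p = 0.0229) fell with it. Pkp3 had 16 and 39 counts without dTAG13, and without the second of these libraries its value was -0.73 (adjusted p = 0.45), while without either 100 nM library it was -1.34 and -1.61 (adjusted p = 0.143 and 0.0864). Pkp2 without 100 nM replicate 1 was at -0.54 (adjusted p = 0.0774). The plakin gene Evpl was higher (0.63, adjusted p = 0.0362), but without 0 nM replicate 1, 0 nM replicate 2 or 100 nM replicate 2 its adjusted p was 0.0508, 0.254 or 0.493.

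Among the gap junction genes, the connexin gene Gjb5 was lower (9.50 to 5.38 RPKM, -0.82, adjusted p = 0.00125), and it changed mainly with 100 nM. Gja1, the most abundant connexin of the list, stood at 36.9 and 53.6 RPKM (0.54, adjusted p = 9.53e-06, short of 1.5-fold). St14, for matriptase, a membrane protease that cleaves EpCAM, fell from 8.90 and 7.10 RPKM to 4.91 and 5.20 with 1 nM and 3.08 and 3.89 with 100 nM (-1.20, SE 0.15, adjusted p = 1.57e-06). Its inhibitors Spint1 and Spint2 were at -0.41 and -0.20.

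Among transcription and splicing factors of epithelia, Elf3, an epithelial ETS factor, held 13.9 and 14.4 RPKM without dTAG13, 9.02 and 7.89 with 1 nM and 8.16 and 7.89 with 100 nM. It was already lower with 1 nM (-0.74, adjusted p = 0.00654), and no further fall was measured at 10 against 1 nM (0.04, adjusted p = 0.932). Tfap2c rose (0.69, adjusted p = 0.0108), with an adjusted p of 0.114 without 0 nM replicate 2 and 0.185 without 100 nM replicate 2. The grainyhead genes Grhl1 and Grhl3 were low, at 1.14 and 3.10 RPKM, with log2 fold changes of -0.12 and -0.43 that did not pass. The 4 tested repressors of epithelial genes had an adjusted p of 0.603 or more, with Zeb1 at 0.13 (adjusted p = 0.603) and Snai1 at -0.20 (adjusted p = 0.812). Zeb2, at 5 and 5 counts, rose to 17 and 17, which is 0.298 RPKM (1.72, adjusted p = 0.0277 in the fit of all genes with a count).

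**Figure D5:**
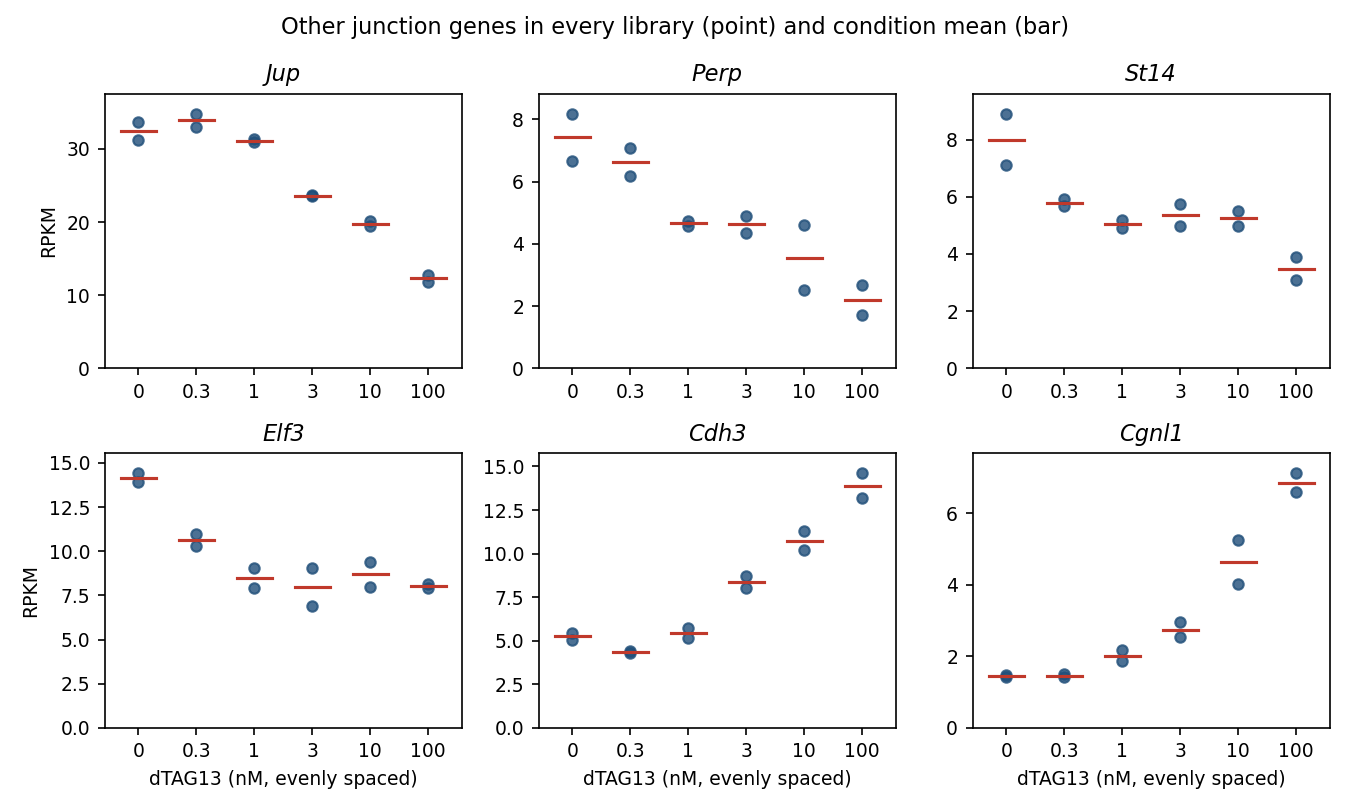
Level in RPKM (vertical axis, from 0, own scale for each gene) of 6 genes of the junction lists against the dTAG13 dose in nM (evenly spaced). Points are libraries and red bars the means of 2. Jup stays near 32.4 RPKM to 1 nM and falls to 12.3 RPKM, Elf3 has its fall by 1 nM, Cdh3 is higher from 3 nM on, and Cgnl1 is above both 0 nM libraries from 1 nM on.

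Markers of other cell types moved with the dose as well. The summed level of 8 trophectoderm markers, an epithelium of the early embryo, was 26.7 to 30.0 RPKM without dTAG13 and 17.2 to 17.4 RPKM with 100 nM, with Krt8 (9.06 to 2.22 RPKM, -2.02, adjusted p = 7.1e-07) and Tead4 (11.6 to 4.71 RPKM, -1.31, adjusted p = 1.39e-07) lower and Cdx2 higher (0.550 to 4.73 RPKM). Elf5 and Hand1 were near 0 throughout these 4 libraries, with 0 to 2 counts. The 8 primitive endoderm markers, all under the filter, summed to 1.63 to 3.45 RPKM over all libraries. In the fit of all genes with a count, Pdgfra was higher with 100 nM (3 and 6 against 28 and 20 counts). The 5 neural markers summed to 4.96 to 5.84 RPKM without dTAG13 and 10.6 to 10.9 RPKM with 100 nM. Nes, Pax6 and Zic1 were higher, and Zic1 had 0 counts without dTAG13. Of the 5, 2 passed the filter, and 1 of these was called with 100 nM. The other 2 calls came from the 3 markers under the filter, in the fit of all genes with a count. The 7 mesoderm and fibroblast markers summed to 7.31 to 11.9 RPKM, and T was called higher with 3 nM (0.69, adjusted p = 0.0154) but not with 10 nM (0.55, adjusted p = 0.0376, short of 1.5-fold) or 100 nM (0.48, adjusted p = 0.0583). The part of these cell types in the junction genes' values was not tested.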

How the data were processed

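Total RNA was converted to libraries with a stranded SMART-Seq kit. The authors trimmed the reads with Trim Galore, aligned them to mm10 with HISAT2 and deposited read-pair counts per gene from featureCounts 2.0.1, without normalization. Counting took pairs with both ends aligned on exons and ignored multi-mapped pairs and strand. Antisense reads thus fall on a gene, although no annotated gene overlaps any of the 9.

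RPKM were computed here from the counts, the exon lengths of the table and TMM factors over the tested genes (0.954 to 1.06). The 12 libraries were fitted together in edgeR 4.0.16 (limma 3.58.1, R 4.3.3) and contrasts were tested by quasi-likelihood. Alternatives were the likelihood ratio test of the study's methods, DESeq2 1.42.0, other factors, no filter, pairwise fits, a replicate block, no fold minimum, leaving out each library in turn and, added after the data were seen, TMM factors over all genes. In simulated counts for 100 against 0 nM over 11378 genes, 99.5% of 200 genes changed 3-fold were called, and 6 of 11178 others. The changed genes were drawn only from those above a floor on the mean count. The recovery of genes with fewer counts, such as Cldn7, or of smaller changes was therefore not measured. Intervals and depth limits cover counting error and replicate spread only, since reads carry no molecular identifiers.

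The members and lists were chosen with earlier results of these data known. Named were the 9 genes, up to 3 called rises and 3 called falls of each list at 100 nM, the 5 genes most like Ildr1 and called neighbours within 50 kb, of which some are not reported here. Other genes named, such as paralogues, were chosen after their values were seen. Promoter sequences came from RefSeq.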

Additional observations from a re-analysis of the deposited data

How the results depend on the processing

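Across the alternatives that kept both libraries of each condition, Cldn4 and Epcam were called lower with 10 and 100 nM in every one. The log2 fold change of Ildr1, given as a description, ran from -2.56 to -1.70 at 3 against 0.3 nM over all alternatives. At 10 against 1 nM it ran from -2.46 to -2.23. At 1 nM, where 1 of 7 tested members was called, the number was 0 with DESeq2's Wald test, DESeq2 size factors, pairwise fits or TMM factors over all genes, 3 with no fold minimum, and 0 to 2 when each library was left out. At 3 nM, where 2 of 7 were called, it was 1 without normalization factors and 1 to 2 with a library left out. At 10 nM, where 2 were called, it was 3 with the likelihood ratio test and with TMM factors over all genes, which both added Cldn6, and 3 with no fold minimum, which added Cdh1. At 100 nM no fold minimum gave 4, by adding Cdh1 and Tjp1. Of all 11378 tested genes, no fold minimum gave 188 lower and 83 higher at 1 nM. It gave about 1160 and 853 at 10 nM, and about 1520 and 1140 at 100 nM. At 3 against 0.3 nM, Cldn4 was at -0.62 without 0.3 nM replicate 1, against -0.68 with all libraries. Of the list genes at 100 nM, 22 were lower and 11 higher with no fold minimum, 3 were higher with DESeq2, and 3 to 5 were higher with a library left out.

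Reversed values were all of changes that passed no test. Leaving out a library, these were Ocln at 0.3 nM (-0.15 to 0.05) and 1 nM (-0.18 to 0.30), Cldn6 at 0.3 nM (-0.05 to 0.29), Tjp1 at 1 nM (-0.04 to 0.03), and Cldn7 at 3 nM (-1.83 to 0.02) and 100 nM (-1.93 to 0.01). At 3 against 0.3 nM they were Cldn7 (-1.41 to 0.44) and Cdh1 (-0.04 to 0.11, and -0.01 with TMM factors over all genes), and at 10 against 1 nM Cldn7 (-1.02 to 0.22). The cause was not tested. TMM factors over all genes, an alternative chosen after seeing the data, gave 957 genes lower and 383 higher at 100 nM, against 777 and 496.

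Replicate numbers did not pair the libraries: over 15 pairs of conditions, deviations of libraries with the same number correlated with r between -0.0949 and 0.0926. With the replicate block, 2 of 7 members were called at 100 nM, as without it, and Cldn3 was lost (adjusted p = 0.0523). With 2 libraries per condition and 4 to 29 counts in each, Cldn6, Cldn7 and Marveld2 had the widest intervals of the 9 genes at 100 nM, and a change in them may have gone undetected at this depth.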
